A study of Homo sapiens with 4 samples.

Results

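The genes of the epidermal growth factor receptor (EGFR) family and its ligands were read after exposure to IL-1β and without it in MIA PaCa-2, a long-established human line from a pancreatic carcinoma. The list held 10 genes: the receptors EGFR, ERBB2 and ERBB3, the ligands HBEGF, AREG, EREG, TGFA and BTC, the ligand-releasing protease ADAM17 and the receptor inhibitor ERRFI1. Their probes were those that carry one of these symbols in the array's table of probes and genes, with symbols brought to current names. These were 19 of the 48803 probes on the array, and they read 9 of the 10 genes, among 18665 genes named on the array. AREG, the gene of amphiregulin, is not named for any probe in that table and was not analysed here. The treated cells had been given IL-1β, an inflammatory cytokine, at 2 ng/ml for 36 h, and the control cells were cultured without it, both in high-glucose DMEM with serum per the labels. Each group held 2 samples with 1 Illumina WG-6 v3 bead chip array each, and since no label says that they came from separate cultures, the spread behind each p-value may be technical.

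Receptors of this family are tyrosine kinases of the cell surface that pair when a ligand binds, and they then signal through the RAS-MAPK and PI3K-AKT pathways. The ligands are made as membrane-bound precursors, and cutting by ADAM17 and related proteases sets them free. ERRFI1, also known as MIG6, binds the kinase domain and restrains the active receptor.

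Raw intensities averaged 482 and 449 on the IL-1β arrays and 527 and 549 on the control arrays. The medians were 169 and 158 on the IL-1β arrays and 168 and 178 on the control arrays, and overlapped between the groups. Detected probes, those with a detection p-value under 0.01, made up 26.7% and 27.0% of all probes on the IL-1β arrays and 26.4% and 26.1% on the control arrays. Of 6 genes listed for epithelial carcinoma cells, the keratins KRT8, KRT18 and KRT19 were detected on all 4 arrays. The adhesion proteins EPCAM and CDH1 were detected on none. The filament protein VIM, also on that list but not specific to epithelium, was detected on all 4. Of 5 markers of acinar and islet cells 0 were detected on any array. Of the leukocyte markers, PTPRC and CD3E were detected on no array, CD14 on 1 array of each group and CD68 on all 4. Of the endothelial markers, CDH5 was detected on all 4 arrays, PECAM1 on 1 IL-1β array and VWF on none. Among fibroblast and stellate cell markers, COL1A2 and ACTA2 were detected on all 4 arrays and COL1A1 and COL3A1 on none.

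Promoter sequences are shown for 4 members, namely the ligands with the largest differences, HBEGF and BTC, the ligand EREG, whose groups overlapped, and the receptor EGFR. They come from RefSeq on GRCh38.p14, cover the 250 bases before the annotated start, and lie at chr5:140346604-140346853 on the minus strand for HBEGF, chr4:74794524-74794773 on the minus strand for BTC, chr4:74364895-74365144 on the plus strand for EREG and chr7:55018767-55019016 on the plus strand for the first of the EGFR starts. Each is printed 5′ to 3′ in its gene's direction, and capitals mark matches on either strand to the GC box GGGCGG, the TATA box TATAAA, the AP-1 motif TGANTCA or the NF-κB consensus motif.
HBEGF: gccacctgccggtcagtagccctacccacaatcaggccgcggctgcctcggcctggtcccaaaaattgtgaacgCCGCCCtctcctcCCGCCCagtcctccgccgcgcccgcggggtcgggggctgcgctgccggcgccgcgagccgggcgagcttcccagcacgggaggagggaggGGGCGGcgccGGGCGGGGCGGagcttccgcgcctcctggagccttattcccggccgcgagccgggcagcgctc
BTC: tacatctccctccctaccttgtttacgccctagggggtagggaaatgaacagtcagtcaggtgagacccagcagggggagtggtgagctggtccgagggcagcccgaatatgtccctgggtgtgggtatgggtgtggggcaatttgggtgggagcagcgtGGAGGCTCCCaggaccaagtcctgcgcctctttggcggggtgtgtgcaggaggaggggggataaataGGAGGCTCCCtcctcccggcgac
EREG: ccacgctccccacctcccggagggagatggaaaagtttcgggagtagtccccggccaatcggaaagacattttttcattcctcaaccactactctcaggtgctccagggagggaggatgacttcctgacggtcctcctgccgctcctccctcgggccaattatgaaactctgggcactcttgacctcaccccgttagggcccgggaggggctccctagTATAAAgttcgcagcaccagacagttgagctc
EGFR: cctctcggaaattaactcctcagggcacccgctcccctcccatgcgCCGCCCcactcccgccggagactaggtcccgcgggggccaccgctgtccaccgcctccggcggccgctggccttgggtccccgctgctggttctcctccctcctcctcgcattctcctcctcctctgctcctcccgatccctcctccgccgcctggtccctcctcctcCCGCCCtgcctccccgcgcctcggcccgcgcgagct

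The sequences differ in which motifs they hold. The HBEGF window held 5 GC boxes, of which 2 overlap, with none of the other motifs. The BTC window held 2 matches to the NF-κB consensus and no GC box, the EREG window 1 TATA box, and the first EGFR window 2 GC boxes. Sequences were matched for 9 of the 10 genes, in 11 windows. A GC box was in 6 of these 11, against 42.6% of 35116 windows of the same length in the table, and the NF-κB consensus in 3, against 9.96%. The TATA box was in 3 (10.7% of all windows) and the AP-1 motif in 2 (6.57%). A match describes the letters and is not a measured binding site. On chromosome 4 the ligand genes EREG, AREG and BTC are consecutive protein-coding genes, preceded by EPGN, which encodes a further ligand of EGFR.

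Of the 19 member probes, 10 were detected on at least 2 arrays and were tested, and they read 8 genes. After quantile normalization, IL-1β-treated cells had lower values of HBEGF (1.35-fold) and BTC (1.31-fold) than control cells, and smaller differences in EGFR and ERBB2. EREG, ERBB3 and ERRFI1 had groups that overlapped, and TGFA was not detected. No member passed an adjusted p of 0.05 in limma, nor did any of the 13152 probes tested (0%), of which 2437 had an unadjusted p under 0.05. Members are therefore given by their values, their intervals and the background over all tested probes. In cultures measured as a whole, fewer cells expressing a gene and less RNA per cell cannot be told apart.

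**Figure D1:**
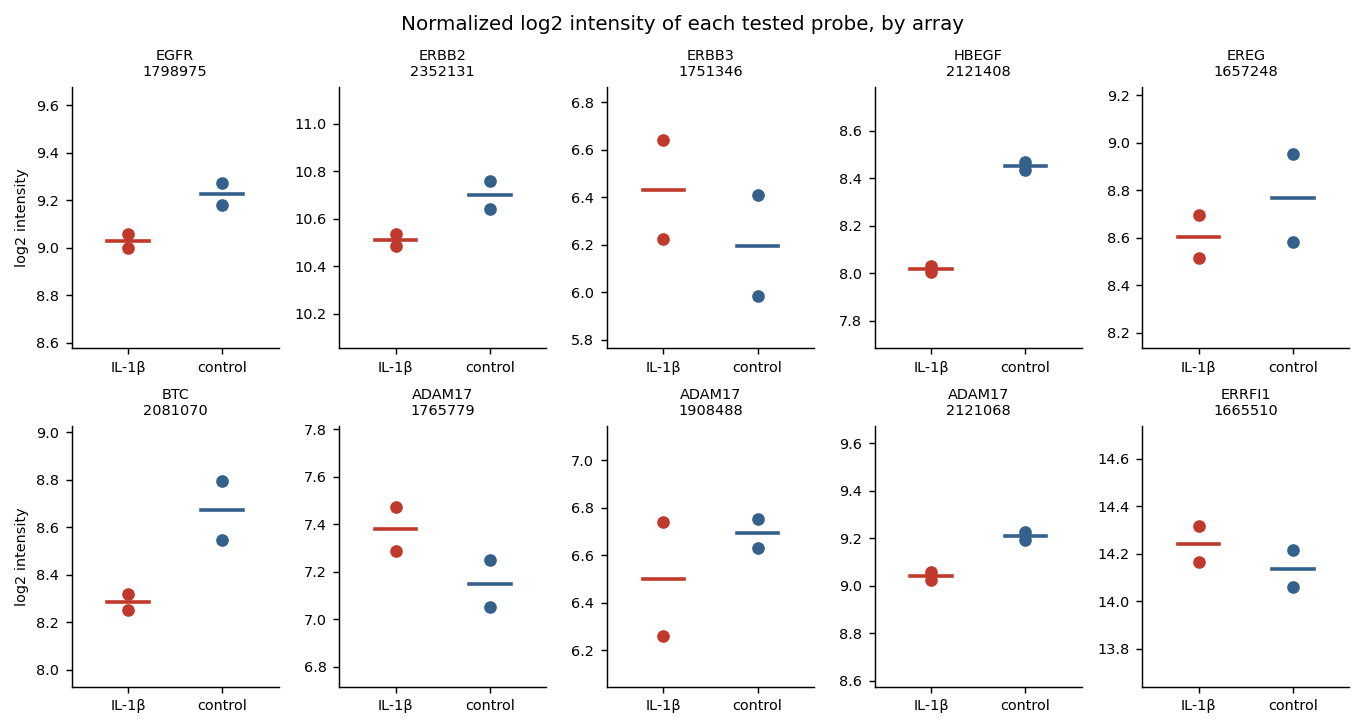
Each panel plots one tested probe of the family, named by gene and probe number, with the normalized log2 intensity on the y axis. Points are single arrays, lines are group means, and every panel spans the same height. In HBEGF the IL-1β arrays lay at 8.01 and 8.03, below the control arrays at 8.47 and 8.43.

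HBEGF encodes heparin-binding EGF-like growth factor, a ligand of EGFR and ERBB4. Its raw intensity was 380 and 353 on the IL-1β arrays and 522 and 554 on the control arrays. On the normalized log2 scale it was at 8.01 and 8.03 with IL-1β and at 8.47 and 8.43 in controls. Both IL-1β arrays thus lay below both control arrays, with a gap much wider than the spread within either group. The mean was 8.02 ± 0.02 with IL-1β and 8.45 ± 0.02 in controls (SD, n = 2 each), a 1.35-fold lower value (95% confidence interval 1.15 to 1.58). The log2 difference of -0.43 ± 0.09 (SE) had an unadjusted p of 0.00417 and an adjusted p of 0.126 in limma. A lower difference was found in 4.25% of all tested probes. The adjusted p in limma passed 0.05 under 4 of 15 other settings, some of which leave out 1 array and keep the processing. These 4 were no background correction (0.0456), median scaling over all probes (0.0366), trend and robust variance settings (0.0470) and the array factors behind the authors' table of means (0.0180). The array factors were added after seeing the data. Of all probes tested, 4.74%, 6.99%, 5.54% and 8.34% passed under those same settings in that order, so HBEGF passed where many other probes did too. Over all 15 its adjusted p ran from 0.0180 to 0.473.

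BTC encodes betacellulin, which binds EGFR and ERBB4. Its raw intensity was 438 and 389 with IL-1β and 544 and 672 in controls. The normalized log2 values were 8.32 and 8.25 with IL-1β and 8.55 and 8.80 in controls. The groups did not overlap, but the control arrays lay further apart than those of HBEGF. BTC was 1.31-fold lower (1.06 to 1.61), a log2 difference of -0.39 ± 0.12 with adjusted p = 0.197 in limma. The difference was -0.51 without control replicate 1 and -0.27 without control replicate 2, so its size moved with the control array used. It passed in limma with median scaling over all probes (adjusted p = 0.0485) and under the authors' array factors (0.0339), the latter added after seeing the data. Of all tested probes, 6.99% and 8.34% passed under these settings. The adjusted p of BTC ran from 0.0339 to 0.535 over the 15 settings.

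EREG encodes epiregulin, a further ligand of EGFR and ERBB4. Its normalized log2 values were 8.51 and 8.70 with IL-1β and 8.95 and 8.58 in controls. The second control array lay between the IL-1β arrays, and the groups overlapped. The log2 difference was -0.16 ± 0.15 (adjusted p = 0.633 in limma), and it turned to 0.026 without control replicate 1. The data hold an interval from 0.685-fold to 1.17-fold for EREG, so neither a moderate decrease nor a small increase can be told from no difference.

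TGFA encodes transforming growth factor alpha, a high-affinity ligand of EGFR. Neither of its 2 probes was detected on any array. Their raw intensities were 159 and 149, and 159 and 153, on the IL-1β arrays, against 165 and 148, and 177 and 164, on the control arrays. The dimmest detected probe of an array had a raw intensity of 207 and 190 on the IL-1β arrays and 214 and 234 on the control arrays, and every TGFA value lay below it. No fold is given for TGFA.

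EGFR, the receptor of all the ligands above, was read by 4 probes, of which only the one listed for the full-length transcript (ILMN_1798975) was tested. Its raw intensity was 614 and 579 with IL-1β and 816 and 828 in controls. The normalized log2 values were 9.001 and 9.06 with IL-1β and 9.27 and 9.18 in controls. The groups did not overlap, although the difference was less than that of HBEGF. EGFR was 1.14-fold lower with an interval that includes no change (0.968 to 1.35), and the adjusted p was 0.353 in limma. The other EGFR probes are listed for transcripts that encode shortened receptors without the kinase domain. They were detected on no array, except for 1 (ILMN_1696521) detected on control replicate 2 alone, with a raw intensity of 181 and 163 with IL-1β and 200 and 235 in controls.

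ERBB2, which has no known ligand and pairs with the other receptors, was read by 3 probes, of which 1 was detected. That probe had a raw intensity of 1503 and 1354 with IL-1β and 1883 and 2124 in controls. On the normalized log2 scale it was at 10.53 and 10.49 with IL-1β and at 10.64 and 10.76 in controls. The groups did not overlap, and the fold was close to that of EGFR at 1.14-fold lower (0.961 to 1.36; adjusted p = 0.373 in limma). The undetected probes of ERBB2 include one listed for the same transcript as the detected one, with raw intensities of 157 and 137 with IL-1β and 135 and 154 in controls. Probes listed for the same transcript therefore gave very unlike signals on these arrays.

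ERBB3, a receptor with little kinase activity of its own that binds neuregulins, was near the limit of detection. The probe listed for its full-length transcript was detected on both IL-1β arrays and on control replicate 2. Its log2 values were 6.22 and 6.64 with IL-1β and 5.98 and 6.41 in controls. The groups overlapped, and the log2 difference of 0.24 ± 0.20 (adjusted p = 0.585 in limma) was less than the gap between arrays of one group. It was 0.02 without control replicate 1 and 0.45 without IL-1β replicate 1. The other probes of ERBB3, both listed for a short transcript that encodes a secreted form, were not detected on any array.

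**Figure D2:**
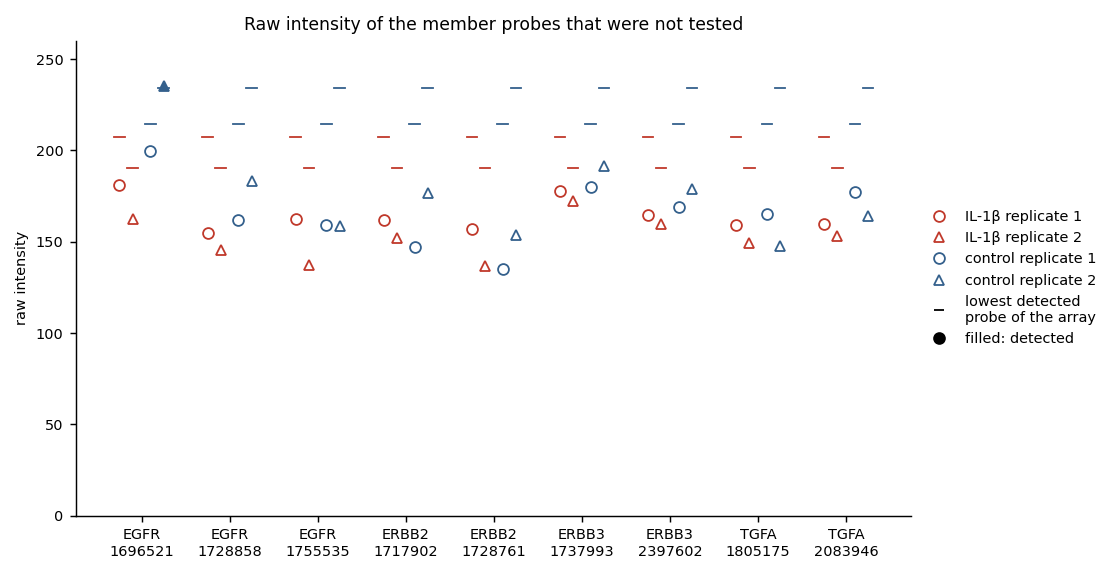
The y axis is the raw intensity of the 9 member probes that were not tested, with IL-1β arrays in red to the left of control arrays in blue, and dashes at the dimmest detected probe of each array. Open symbols are not detected. The single detected value is EGFR on control replicate 2, at 235.

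ADAM17 encodes the protease that releases HBEGF, EREG and TGFA among other ligands, and its 3 probes did not move one way. The brightest probe (ILMN_2121068) had log2 values of 9.06 and 9.03 with IL-1β and 9.22 and 9.19 in controls. A dimmer probe listed for the same transcript (ILMN_1765779) had 7.47 and 7.29 with IL-1β and 7.25 and 7.05 in controls. Both pairs of groups were free of overlap on this normalized scale, but in opposite directions. In raw intensity the dimmer probe was at 307 and 266 with IL-1β and at 302 and 307 in controls, and overlapped. The brightest was at 628 and 569 with IL-1β and at 791 and 835 in controls. With median scaling over all probes the log2 difference of the dimmer probe was 0.017. The log2 difference was -0.17 ± 0.09 for the brightest (adjusted p = 0.399 in limma) and 0.23 ± 0.12 for the dimmer probe (adjusted p = 0.380). The remaining probe, which is listed for an expressed sequence tag and not for a curated transcript, overlapped between the groups at -0.19 ± 0.17. It changed sign to 0.049 without IL-1β replicate 2, and no direction can be given for ADAM17 from these probes.

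ERRFI1, the inhibitor, had raw intensities of 18310 and 19319 with IL-1β and 18041 and 19737 in controls. The brightest value on these arrays was 31531 and 31587 with IL-1β and 32567 and 32414 in controls, so the probe was not at the top of the range. Its log2 values were 14.17 and 14.32 with IL-1β and 14.06 and 14.22 in controls, and the groups overlapped. The difference of 0.10 ± 0.11 (adjusted p = 0.677 in limma) corresponds to 1.07-fold (0.885 to 1.31). Scaling to the median of the tested probes gave 0.34, and the authors' series matrix values gave 0.27. In those series matrix values the groups did not overlap, at 18116 and 20556 with IL-1β and 15625 and 16502 in controls. Whether the ERRFI1 groups overlapped thus depended on the scaling. ERRFI1 passed under none of the settings tried, where the adjusted p in limma ran from 0.160 to 0.957.

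**Figure D3:**
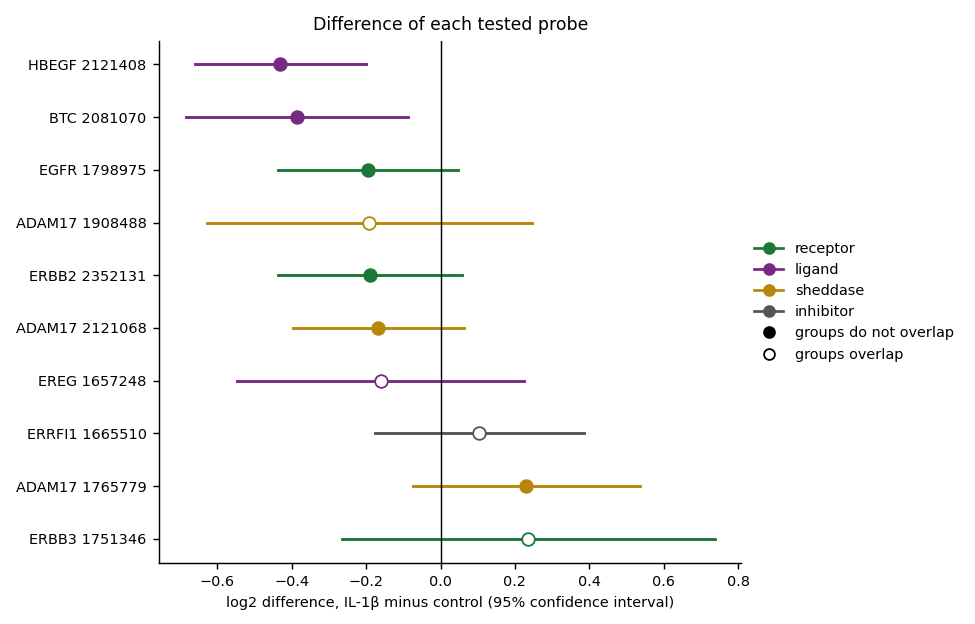
Log2 differences of the 10 tested probes, IL-1β minus control, are on the x axis with 95% confidence intervals as bars, coloured by role. Filled points mark probes whose groups do not overlap. The intervals of HBEGF and BTC lie below 0, and the other 8 include it.

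Across the probes, 7 of the 10 tested probes had a lower mean after IL-1β and 3 a higher one, with a median log2 difference of -0.18. The median over all 13152 tested probes was 0.00. Quantile normalization gives every array the same distribution of values, which largely sets that median and the near-even split of all tested probes. The groups were free of overlap with IL-1β lower in 5 of 10 member probes, against 25.2% of all tested probes, and with IL-1β higher in 1, against 25.5%. An unadjusted p under 0.05 was reached by 2 of 10 in the lower direction (9.28% of all tested probes) and by 0 in the higher direction (9.25%). None of the 10 was at least 1.5-fold lower with no overlap, a size that 1.53% of all tested probes reached. These counts moved with the scaling and background correction, as did those over all probes. With median scaling over all probes, 6 of 10 member probes were lower at an unadjusted p under 0.05 (32.2% of all tested probes), 2 were at least 1.5-fold lower with no overlap (6.12%), and the members' median was -0.40 where that of all tested probes was -0.22. With the authors' array factors, which leave the background in, 5 of 10 were lower at an unadjusted p under 0.05 (18.03% of all tested probes). In the series matrix values 4 of 10 were lower at that threshold (14.4%). The members' median there was -0.27 where that of all tested probes was -0.08. The counts are small, and the 3 ADAM17 probes read a single gene. By gene, with the tested probe of the highest mean, 6 of 8 were lower and the median was again -0.18. That count includes ADAM17, whose probes gave no direction, and 50.3% of all tested probes were lower. For scale, genes that were higher after IL-1β in earlier results of these data were CFB at 2.15-fold, CCL22 at 2.17-fold, C1S at 2.76-fold and SOD2 at 1.53-fold by its brightest probe, each larger than any member's difference. The other SOD2 probes had log2 differences of 0.70 and 0.22.

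EGFR, ERBB2, HBEGF, BTC and the brightest ADAM17 probe lay lower with no overlap in the fit reported here and under each setting that changed the background correction or the scaling, all on the same arrays. The other settings keep these values or leave out 1 array, and are no check of the separation. Of all tested probes, 25.2% lay lower with no overlap as reported. That share ran from 23.4% with median scaling over tested probes to 59.9% with median scaling over all probes. It was 37% in the series matrix values and 36.4% with the authors' array factors. The ADAM17 probe ILMN_1765779 lay the other way, higher with no overlap as reported and under 14 of 15 other settings. Scaling moved the size. With median scaling over all probes, which moves the median of all tested probes to -0.22, the log2 difference was -0.66 for HBEGF, -0.62 for BTC, -0.45 for EGFR and -0.41 for ERBB2. With no background correction HBEGF was at -0.29, the least of its values, and over all settings BTC ranged from -0.62 to -0.27.

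**Figure D4:**
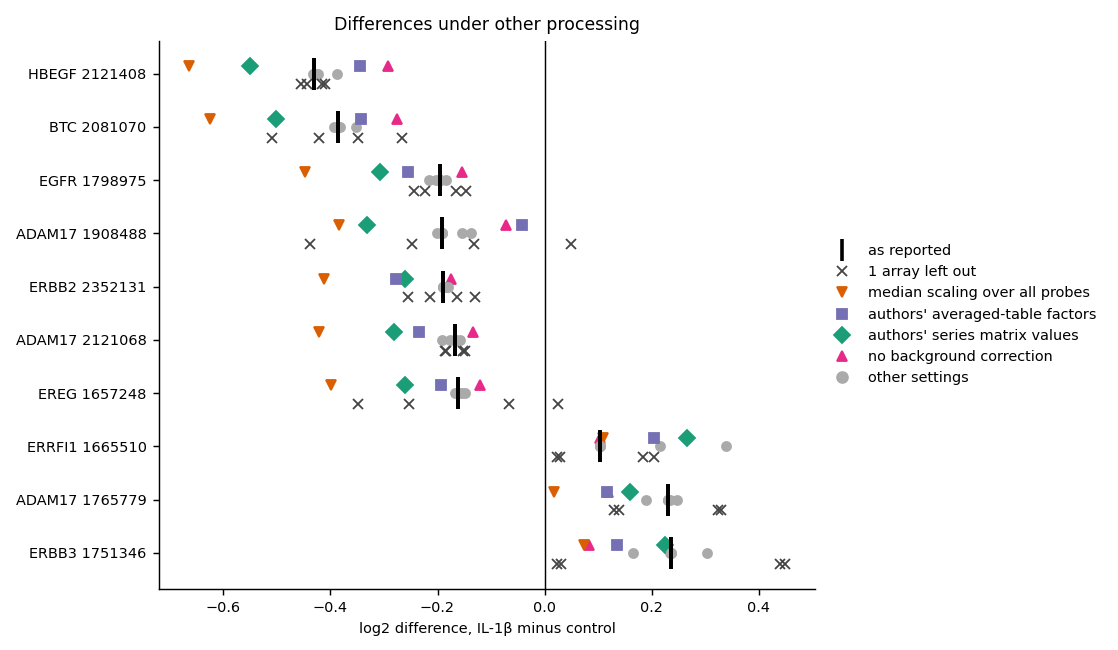
The x axis is the log2 difference, IL-1β minus control, of each tested probe under every setting tried. Black bars are the values reported here, crosses leave out 1 array, and coloured symbols change the scaling or background. EREG and one ADAM17 probe cross 0 when 1 array is left out, and HBEGF stays between -0.66 and -0.29.

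The authors' deposited table of signed gene scores holds 4 members, all with negative scores, the sign it gives to genes whose authors' mean is lower after IL-1β. The score in the authors' deposited table was -38.3 for HBEGF, -30.0 for EGFR, -25.5 for ERBB2 and -24.2 for ADAM17. Of all 1440 scores there, 1215 are negative and 225 positive, where the array names 18665 genes. The members scored are 4 of the 9 with a named probe, and BTC, EREG, ERBB3, TGFA and ERRFI1 are not among them. The authors' deposited table of mean intensities gave HBEGF 395 with IL-1β and 502 in controls, and EGFR 643 with IL-1β and 767 in controls. In the same authors' deposited table ERBB2 was at 1539 with IL-1β and 1867 in controls, and ADAM17 at 645 with IL-1β and 758 in controls. The ADAM17 means there are those of its brightest probe (ILMN_2121068) alone, and the probes of ADAM17 did not move one way. These values rest on the same 4 arrays.

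HBEGF had the smallest p among the member probes. Over the 4 arrays, and among 11232 tested probes with a gene name, the genes whose centred log2 values lay nearest to it in Euclidean distance were STXBP3 (0.0118), a regulator of vesicle fusion, ATMIN (0.0256), a transcription factor linked to the kinase ATM, and SLC26A11 (0.0289), an anion transporter. Their log2 differences were -0.43, -0.42 and -0.45. The likeness is a description over these arrays.

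Other genes of the pathway were read from a list of 60, of which 49 had a named probe and 34 a tested one. In limma 0 of 34 passed an adjusted p of 0.05, and the median log2 difference was -0.02, with 15 higher and 19 lower. An unadjusted p under 0.05 was reached by 1 of 34 in the higher direction and 3 of 34 in the lower, against 9.25% and 9.28% of all tested probes, so the count is not above the background. The genes named next are a description. SRC, a kinase that acts beside the receptors, was at 9.20 ± 0.11 with IL-1β and 8.86 ± 0.08 in controls (SD, n = 2 each), a log2 difference of 0.34 ± 0.11 (adjusted p = 0.201). The phosphatase PTPN11, which relays receptor signals to RAS, differed by -0.25 ± 0.09 (adjusted p = 0.255). RHBDF1, a rhomboid-like protein that escorts ADAM17 in its maturation, differed by -0.26 ± 0.10 (adjusted p = 0.263), and EPS15, an adaptor of receptor endocytosis, by -0.31 ± 0.12 (adjusted p = 0.266).

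By role, with the brightest tested probe of each gene, the adaptors and proximal kinases had 2 of 7 higher and 5 lower. The RAS-MAPK core had 2 of 5 higher and 3 lower, and the proteins of receptor down-regulation 4 of 12 higher and 8 lower. The PI3K-AKT core had 2 of 3 higher and 1 lower, and the genes of shedding and maturation 2 of 4 higher and 2 lower. Another tested probe had the opposite sign in SHC1, GRB2, NCK1, AKT1, CBL and USP8, so these counts depend on the probe taken. Over all tested probes 50.3% were lower. By their brightest probes all 3 STAT genes had higher means, from 0.13 for STAT3 to 0.32 for STAT5B, with adjusted p between 0.298 and 0.638, while another STAT3 probe was at -0.02. The further receptor and ligand genes on that list, among them ERBB4, EGF and the neuregulins, had 0 tested probes, so the ligands measured here were HBEGF, BTC and EREG.

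**Figure D5:**
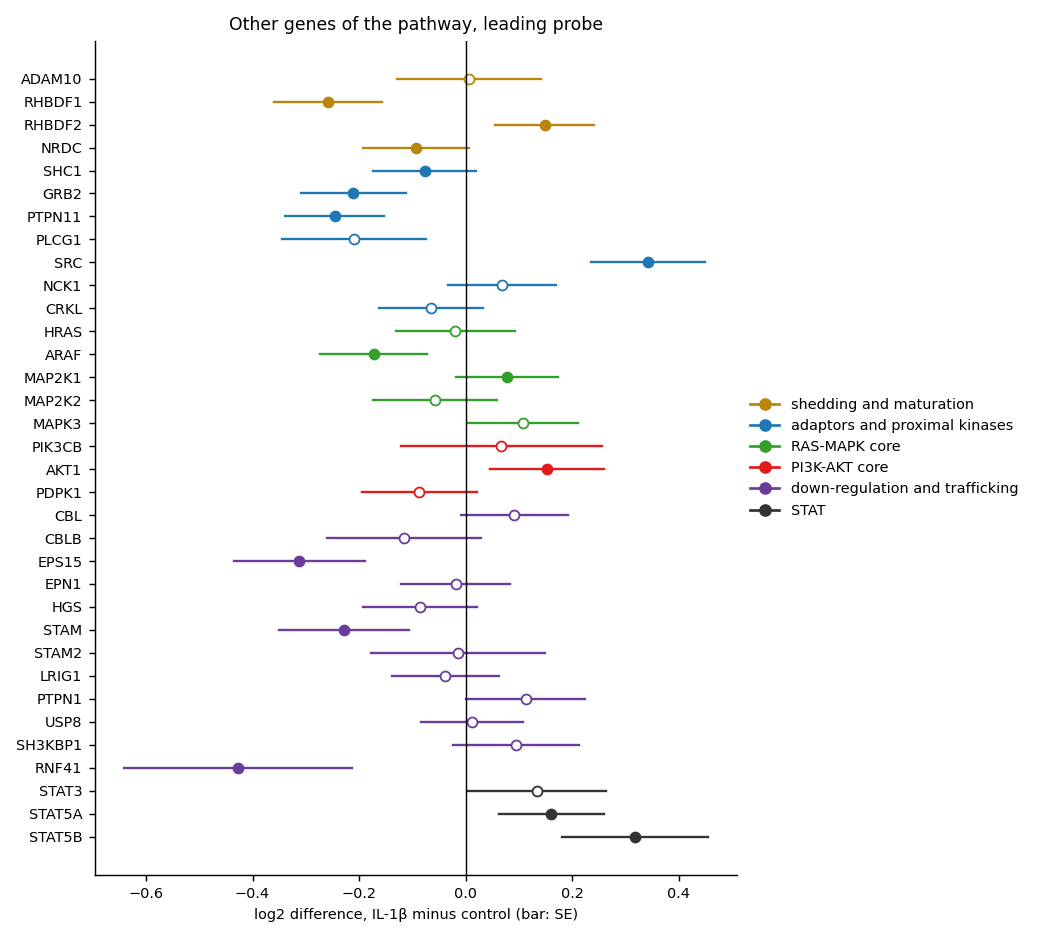
Log2 differences, IL-1β minus control, of the 34 tested genes of the wider pathway, each by its brightest tested probe, with SE as bars and colours by role. Filled points mark genes whose groups do not overlap. The values run from -0.43 for RNF41, a ubiquitin ligase of ERBB3, to 0.34 for SRC.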

How the data were processed

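The authors deposited raw probe intensities on a linear scale for 4 arrays, each with a column of detection p-values, per the file headers. Neither scanner software nor genome build is stated in the labels or headers. The values show that the authors' series matrix intensities had 1 constant subtracted and were then multiplied by 1 factor per array, so that every array has a mean of 322. How the authors' deposited scores were computed is not stated there.

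limma 3.58.1 in R 4.3.3 was used throughout. Its neqc function corrected background from the detection p-values (offset 16), quantile normalized and took log2. A probe was tested when its detection p was under 0.01 on 2 or more arrays, with lmFit and eBayes, two-sided, adjusted by Benjamini-Hochberg over all 13152. Differences had a median SE of 0.111 on the log2 scale, with 5.52 degrees of freedom, and the number of arrays limits the precision. Gene names come from the array's probe table: 27578 probes have 1 gene, 13 several and 21212 are not listed. Symbols were replaced by the current RefSeq symbol of the same gene identifier where there was one. Probes with several genes were left unnamed. The fit was run on simulated data drawn from its own variance model. Background correction, quantile normalization and the detection filter were not checked that way.

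The members and the lists were chosen with earlier results of these data known. The rule for named genes takes all members with every probe, pathway genes with an unadjusted p under 0.05, and the 3 genes nearest to the member of smallest p. CFB, CCL22, C1S and SOD2 are named as earlier responders. STAT3, STAT5B and RNF41 were chosen after their values were seen. Alternatives changed the background, scaling, filter, variance model and pairing, or left out each array. The array factors behind the authors' table of means were applied to raw intensities, without background correction or quantile normalization. They were added after seeing the data.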

Additional observations from a re-analysis of the deposited data

How the results depend on the processing

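Over all probes, 0 passed an adjusted p of 0.05 in limma as reported, with cyclic loess, in the authors' series matrix values, with no filter and without each array in turn. The count was 91 when the offset was 50, 624 without background correction, 10 with median scaling over tested probes, 919 with median scaling over all probes (861 lower), 66 with detection required on all 4 arrays, 728 with trend and robust settings and 1097 with the authors' array factors (858 lower). Probes at least 1.5-fold apart with no overlap numbered 401 as reported, 157 when the offset was 50, 47 without background correction, 873 with median scaling over all probes, 682 in the authors' series matrix values, 222 with detection on all 4 arrays, 875 with no filter and 66 with the authors' array factors. Leaving out 1 array gave 483 to 518. Of the probes below an unadjusted p of 0.05, 50.1% were lower as reported, 94.3% with median scaling over all probes, 74.4% in the series matrix values and 72.0% with the authors' array factors.

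Among members, leaving out 1 array moved EREG between -0.35 and 0.026, positive without control replicate 1, and the ADAM17 probe ILMN_1908488 between -0.44 and 0.049, positive without IL-1β replicate 2. The cause was not tested. With the replicate block 0 probes passed, and the deviations of same-numbered arrays correlated at -0.09, so the numbers were not taken as pairs. ERBB3 had no value with detection on all 4 arrays. TGFA and the other undetected probes are limited by their signal over background.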
